A study of Mus musculus with 6 samples.

Results

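The genes described here encode the motors that carry cargo along microtubules in neurons, namely kinesin heavy chains (Kif), kinesin light chains (Klc), the subunits of cytoplasmic dynein (Dync) and the subunits of its cofactor dynactin (Dctn). Every probe set of the array whose only gene symbol starts with 1 of these 4 stems and a digit was taken. This gave 128 probe sets of 53 genes, among 45037 probe sets without controls. Of these, 80 probe sets of 38 genes had a mean signal of 100 or more in at least 1 group and were tested, and 48 probe sets stayed under 100 in all 3 groups, which left 15 genes with no tested probe set. Among the 80 tested probe sets, 72 reached 100 in all 3 groups and 8 in only some of them. Just inside the threshold lay a Dctn4 probe set (1458541_at), with a highest group mean of 100.6, and just outside it a Kif4 probe set (1450692_at), with 99.3.

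Signals came from hippocampal RNA of male Tg2576 mice, labelled C57BL/6 (C57BL/6J in the study's methods), a transgenic model in which a prion protein promoter drives the human APP695 isoform, carrying the Swedish mutation, in neurons. The Tg-18mo-ACEI mice were 18 months old and for 6 months had drunk water with captopril, a drug that blocks angiotensin-converting enzyme, at a daily dose of 20 mg per kg. The Tg-18mo mice were untreated and of the same age, with a high plaque load, and the Tg-12mo mice were untreated, 12 months old and had a low plaque load, the state at which treatment began. All 3 groups carried the transgene, and mice without it are not analysed here. Each group had 2 chips, and each chip carried the pooled RNA of 4 mice. All p-values below therefore refer to variation between pooled RNA samples, part of which may be technical. In such bulk RNA, fewer cells of a type cannot be told apart from less RNA per cell.

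Kinesins of the cargo classes walk mostly towards the plus ends of microtubules, which in axons point away from the cell body, and so carry vesicles, mitochondria and RNA outward. Cytoplasmic dynein walks to the minus ends, carries endosomes and damaged organelles back, and needs dynactin to grip its cargo. Mitotic kinesins are known from dividing cells, and a few kinesins and a separate dynein serve cilia, both the motile cilia of ependymal cells and the primary cilium that neurons carry.

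The signals are those the authors deposited, scaled on each chip to a trimmed mean of 600. Correlations over tested probe sets were 0.987 to 0.992 within groups and 0.958 to 0.965 between groups. Control probe sets differed between the groups, since the signal at the 3′ end of 18S ribosomal RNA was 2214 and 1999.95 in Tg-18mo-ACEI, 10219 and 11144 in Tg-18mo, and 2125 and 2121 in Tg-12mo, and the β-actin 3′/5′ ratio was 1.45 and 1.38 in Tg-18mo-ACEI, 1.98 and 1.88 in Tg-18mo, and 1.83 and 1.77 in Tg-12mo. The upper end of the scale differed as well, with a highest signal of 23607 and 21934 in Tg-18mo-ACEI, 24057 and 25102 in Tg-18mo, and 39494 and 40190 in Tg-12mo. The part of these differences in the results below was not tested, except that the differences of the transport genes and of the machinery lists were recomputed after quantile normalization, which gives all chips the same distribution of signals. All 7 neuronal markers examined, among them Snap25 and Syt1, were measured, with a summed signal of 77737 to 82082 in Tg-18mo-ACEI, 80146 to 84498 in Tg-18mo and 107113 to 108531 in Tg-12mo. As deposited, 5 of the 7 were lower in Tg-18mo than in Tg-12mo, 1 (Nefm) was higher and 1 (Camk2a) had no call. Over all genes by their brightest probe sets, 28% were higher and 21% lower. Of all tested probe sets with a mean signal of 5000 or more, 68.3% were lower. The brightest probe sets weigh most in the summed signal, and the markers were not recomputed after quantile normalization.

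The median signal over the 6 chips was 1102 for the 80 transport probe sets, against 590.2 for all 23262 tested probe sets. Probe sets bind with different strength, so these signals do not rank genes by amount of RNA. Of the probe sets for cargo kinesins 43 of 56 were tested, and of those for dynactin 13 of 14. For mitotic and depolymerising kinesins 5 of 30 were tested, and the other 25 had highest group means between 5.27 and 99.3.

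**Figure D1:**
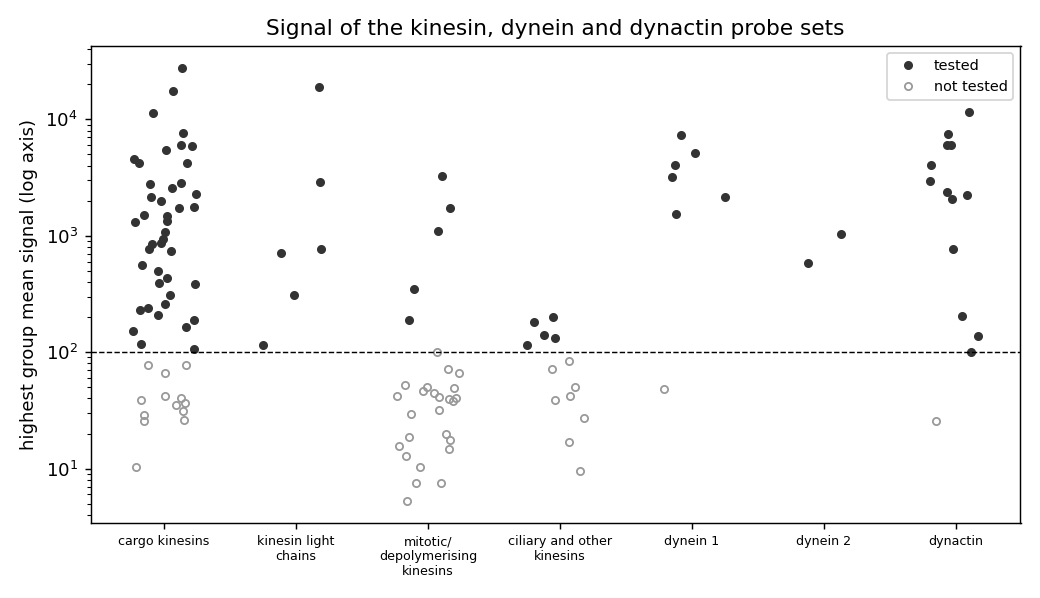
Highest group mean signal (log axis) of each of the 128 probe sets, by role of the gene. Filled points are the 80 tested probe sets and open points the 48 that stayed under 100 (dashed line), most of which belong to mitotic and depolymerising kinesins.

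The comparison of captopril-treated with untreated mice of 18 months asks which of these genes differed after treatment. Of the 80 probe sets, 21 rose and 16 fell in Tg-18mo-ACEI against Tg-18mo at an adjusted p under 0.05 (limma, Benjamini-Hochberg over all tested probe sets), that is 26.2% and 20% of them. The background shares over all tested probe sets were 15.9% higher and 17.7% lower (33.6% in either direction). The median log2 difference was 0.02 over the transport probe sets and -0.04 over all tested probe sets, with a range from -0.93 for Kif9 to 2.16 for Kif5b. When each gene was represented by its brightest probe set alone, 8 of 38 genes rose and 10 fell (21.1% and 26.3%, against background shares of 12.6% and 21.7%). The thresholds of the study are a 2-fold difference and an unadjusted p of 0.01 or less, taken here from limma and not from t-tests. With them 5 probe sets rose (background 3.03%) and 0 fell (background 1.06%). The 5 probe sets were 1 of Kif21a, 2 of Kif5b and 2 of Kif1b.

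By role, the calls were spread unevenly, though the roles were not tested against each other. The background shares over all tested probe sets were 15.9% higher and 17.7% lower. Of 43 probe sets of cargo kinesins, 17 rose and 5 fell in Tg-18mo-ACEI against Tg-18mo, with a median log2 difference of 0.22. These belong to 15 genes, and several of the rises came from the same gene, as in Kif5b and Kif1b. By the brightest probe set of each gene, Kif5b, Kif3a, Kif16b and Kif21a rose, while Kif1a, Kif13a, Kif13b and Kif21b fell. In dynactin, 1 of 13 rose and 6 fell, with a median of -0.15. Of the 6 probe sets for kinesin light chains 0 rose and 2 fell, and of the 6 for dynein 1 there were 3 that rose and 1 that fell. After quantile normalization the cargo kinesin counts were 16 and 7 and the dynactin counts 1 and 5. Without any single chip the cargo kinesin rises numbered 12 to 17, and the dynactin falls 3 to 6.

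Between the ages, 16 of the 80 probe sets were higher and 25 lower in Tg-18mo than in Tg-12mo (20% and 31.2%, against background shares of 25.9% and 21.5%, or 47.3% in either direction). This split depended on the scaling, since quantile normalization gave 21 higher and 20 lower. The background shares moved with it, to 21.9% higher and 22% lower. The medians were 0.03 for the transport probe sets and 0.05 for all. With the brightest probe set of each gene 10 of 38 were higher and 15 lower (26.3% and 39.5%, against 28% and 21% of all), and at the thresholds of the study 0 were higher and 2 lower, 1 each of Kif1b and Kif5b (background 2.57% and 1.78%). Cargo kinesins held 9 of the higher and 18 of the lower probe sets, and after quantile normalization 11 and 15. Between captopril-treated mice of 18 months and mice of 12 months, 22 probe sets were higher and 17 lower in Tg-18mo-ACEI (27.5% and 21.2%, against 22.3% and 17.7% of all, or 40.1% in either direction), with medians of 0.11 and 0.05. With the brightest probe sets the counts were 11 and 10 (28.9% and 26.3%, against 20.1% and 20.6%), and at the thresholds of the study 1 and 0 (background 2.05% and 1.24%). The 3 comparisons share chips, so their counts are not independent of each other.

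**Figure D2:**
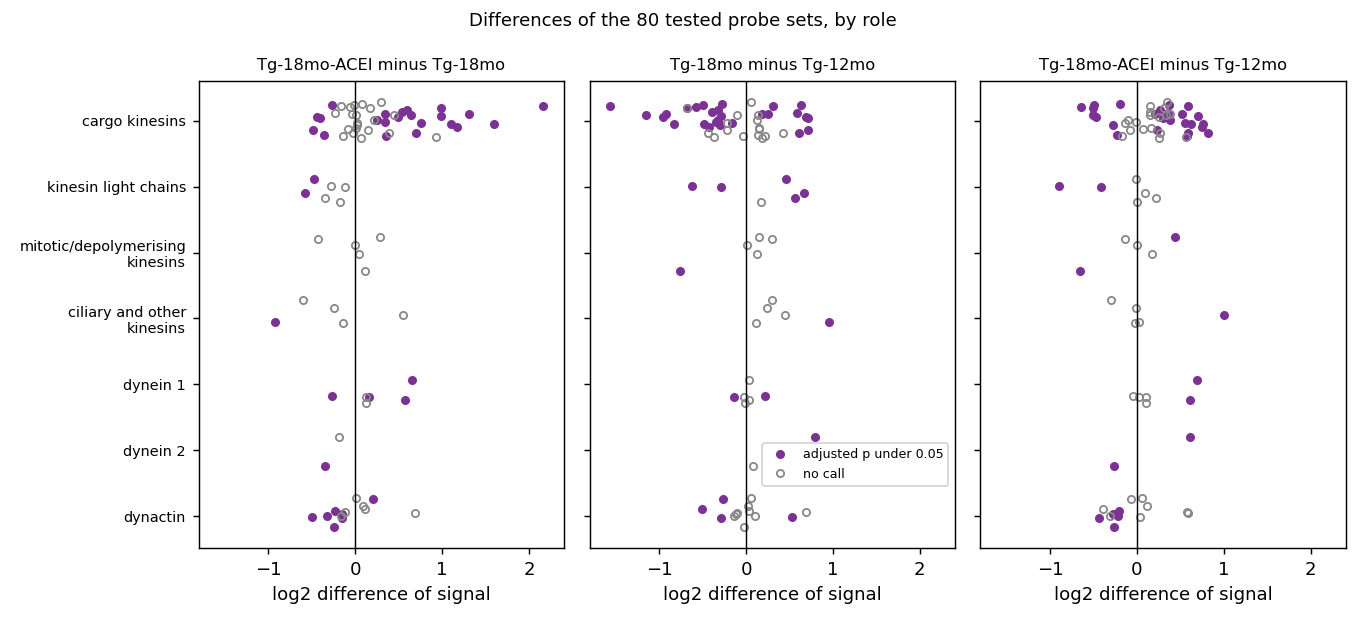
Log2 difference of signal (x axis) of the 80 tested probe sets in the 3 comparisons, by role of the gene. Filled points passed an adjusted p under 0.05. Cargo kinesins reach the furthest to the right in Tg-18mo-ACEI against Tg-18mo, up to 2.16, and the furthest to the left in Tg-18mo against Tg-12mo, down to -1.57.

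For 43 of the 53 genes, and 30 of the 38 with a tested probe set, RefSeq promoter windows of the mouse build GRCm38.p6 were at hand. The 150 bases before the start site are shown for a few genes on which the results turn. With captopril against untreated mice of 18 months, Kif1b and Kif21a had probe sets with large rises, and Kif1a fell. Kif5c and Klc1 belong to the same motor, kinesin-1, but had probe sets called in opposite directions in that comparison, for Kif5c only 1422945_a_at. The windows read 5′ to 3′ on the gene's strand, from the first listed start site where a gene has several. Capitals mark the cAMP response element TGACGTCA and the GC box GGGCGG, a site for Sp factors, on either strand (CCGCCC on the other).
Kif1b, chr4:149307734-149307883, minus strand: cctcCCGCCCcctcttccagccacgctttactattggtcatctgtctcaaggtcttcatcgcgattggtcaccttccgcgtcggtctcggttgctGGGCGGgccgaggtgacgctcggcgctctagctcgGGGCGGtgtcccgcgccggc
Kif21a, chr15:91049952-91050101, minus strand: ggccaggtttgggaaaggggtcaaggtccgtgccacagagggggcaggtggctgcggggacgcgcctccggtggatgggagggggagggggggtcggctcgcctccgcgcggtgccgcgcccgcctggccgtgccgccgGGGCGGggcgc
Kif5c, chr2:49619136-49619285, plus strand: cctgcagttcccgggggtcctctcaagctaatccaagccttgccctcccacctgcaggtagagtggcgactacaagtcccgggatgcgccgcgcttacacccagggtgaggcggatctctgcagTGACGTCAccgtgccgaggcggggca
Klc1, chr12:111758718-111758867, plus strand: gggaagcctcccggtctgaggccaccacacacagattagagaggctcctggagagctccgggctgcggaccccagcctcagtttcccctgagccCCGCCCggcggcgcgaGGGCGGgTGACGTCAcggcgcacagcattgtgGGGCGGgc
Kif1a, chr1:93101875-93102024, minus strand: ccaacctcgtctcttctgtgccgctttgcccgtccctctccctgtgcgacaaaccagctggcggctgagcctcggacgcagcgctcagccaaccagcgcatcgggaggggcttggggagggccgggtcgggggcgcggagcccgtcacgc

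The cAMP response element stood in the windows of Kif5c, Klc1, Kif17 and Dctn3, that is in 4 of 49 windows (8.16%), against 1.36% of all 32851 windows of the same length. The GC box stood in 27 of the 49 windows (55.1%, against 28.6% of all), the CCAAT box (CCAAT or its complement) in 18 (36.7%, against 24.5%), and the TATA box (TATAAA or its complement) in 0 (against 7.57%). In Klc1 a GC box lay 1 base from the response element. The windows of Kif1b and Kif21a held GC boxes and no response element, and that of Kif1a held neither. These are matches of letters only, several windows belong to the same gene, and no binding was measured.

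Kinesin-1 is the classical fast motor, built of heavy chains encoded by Kif5a, Kif5b and Kif5c and light chains that bind cargo. Kif5b, the heavy chain that most tissues use, had the largest difference of all 80 probe sets, both with captopril and between the ages. Its probe set 1418431_at had signals of 1990 and 1959 in Tg-18mo-ACEI, 456.1 and 426.0 in Tg-18mo, and 1257 and 1362 in Tg-12mo. The 3 groups did not overlap, and untreated mice of 18 months were by far the lowest. The log2 difference was 2.16 ± 0.07 (SE) with captopril (4.48-fold, adjusted p = 6.4e-07), -1.57 ± 0.07 in Tg-18mo against Tg-12mo (adjusted p = 4.1e-06) and 0.59 ± 0.07 in Tg-18mo-ACEI against Tg-12mo (adjusted p = 3.1e-04). The group in which this probe set was low is the group in which the 18S signal was high, and a link between them was not tested.

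The other 4 probe sets of Kif5b all had positive differences with captopril, but of another size. The brightest, 1418427_at, had 6048 and 5746 in Tg-18mo-ACEI, 2667 and 2808 in Tg-18mo, and 4008 and 3659 in Tg-12mo, differences of 1.11, -0.49 and 0.62 (adjusted p = 6.7e-06, 2.9e-04 and 1.1e-04). Probe set 1418430_at had 4036 and 3825 in Tg-18mo-ACEI, against 2916 and 2683 in Tg-18mo, while the 5377 and 5502 of Tg-12mo were above both. There captopril-treated mice exceeded untreated mice of the same age by 0.49 (adjusted p = 3.9e-04) yet lay 0.47 below the younger mice (adjusted p = 3.4e-04), so the order of treated and younger mice depended on the probe set. Probe set 1418428_at rose by 0.76 with captopril (adjusted p = 0.003), and its difference between the ages was -0.21 (adjusted p = 0.21), but 0.02 without Tg-12mo replicate 1 and -0.45 without Tg-12mo replicate 2 (adjusted p = 0.84 and 0.0028). The fifth, 1418429_at, gave 0.22 with captopril (adjusted p = 0.085, or 0.33 and 0.037 without Tg-18mo-ACEI replicate 1) and -0.33 between the ages (adjusted p = 0.015), a call that did not hold without Tg-18mo replicate 2 or Tg-12mo replicate 1 (adjusted p = 0.09 and 0.094). The rise of 1418428_at over Tg-12mo, 0.55 (adjusted p = 0.011), was lost without Tg-18mo-ACEI replicate 1 (adjusted p = 0.063) and shrank to 0.31 without Tg-12mo replicate 2.

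Kif5c, a heavy chain enriched in neurons, was split between its probe sets. With captopril, 1422945_a_at had 4159 and 4204 in Tg-18mo-ACEI, 2155 and 2054 in Tg-18mo, and 2861 and 2308 in Tg-12mo. It rose by 0.99 ± 0.09 against Tg-18mo (adjusted p = 1.2e-04) and lay 0.70 above Tg-12mo (adjusted p = 4.9e-04). Its fall between the ages, -0.29 (adjusted p = 0.028), was lost without either chip of Tg-18mo (adjusted p = 0.063 and 0.13) and without Tg-12mo replicate 1 (-0.13, adjusted p = 0.12), and grew to -0.44 without Tg-12mo replicate 2. The brightest probe set, 1455266_at, had 12730 and 12155 in Tg-18mo-ACEI, against 12231 and 12799 in Tg-18mo, which overlap (-0.01, adjusted p = 0.91). In Tg-12mo it had 17587 and 17551, so that both older groups were lower, by 0.50 and 0.49, as deposited (adjusted p = 1.0e-04 and 8.3e-05). After quantile normalization these differences were 0.04 and -0.02 (adjusted p = 0.34 and 0.65). The dim 1450804_at, with 207.6 and 225.3 in Tg-18mo-ACEI, 183.8 and 199.2 in Tg-18mo, and 290.1 and 323.2 in Tg-12mo, kept its fall of 0.68 between the ages after that step (-0.77, adjusted p = 0.0027).

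**Figure D3:**
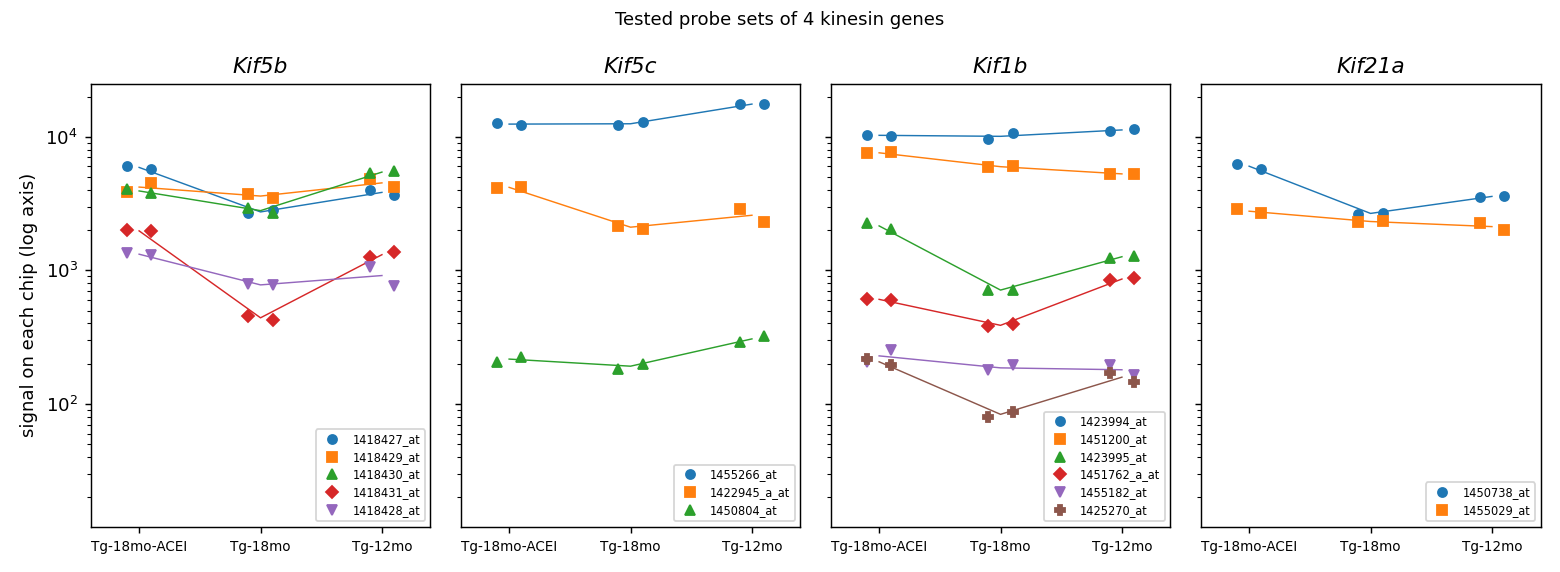
Signal on each chip (log axis) of all tested probe sets of Kif5b, Kif5c, Kif1b and Kif21a. Points are chips, lines join group means. Probe sets of the same gene run in parallel in some cases and not in others, as in Kif5b, where 1418431_at drops to 456.1 and 426.0 in Tg-18mo and 1418429_at stays between 3463 and 4811 on the 6 chips.

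Kif5a, the heavy chain confined to neurons and needed for the transport of neurofilaments, had signals at the upper end of the scale. Probe set 1434670_at had 18698 and 16999 in Tg-18mo-ACEI, 17555 and 19724 in Tg-18mo, and 27270 and 28226 in Tg-12mo. Captopril made no called difference (-0.06, adjusted p = 0.52), and the chips of both older groups overlapped. As deposited, Tg-18mo-ACEI lay 0.64 and Tg-18mo 0.58 below Tg-12mo (adjusted p = 1.9e-04 and 2.4e-04), but quantile normalization turned both into rises of 0.11 (adjusted p = 0.035 and 0.029). The dimmer 1450249_s_at, whose suffix marks probes shared with other transcripts, lay between 648.5 and 746.1 on all chips, with no call in any comparison.

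Klc1, the main light chain of neurons, behaved unlike Kif5b. Probe set 1428881_at had 522.8 and 504.6 in Tg-18mo-ACEI, 789.1 and 744.2 in Tg-18mo, and 474.1 and 487.8 in Tg-12mo. It fell by 0.58 ± 0.08 with captopril (adjusted p = 0.0011) and was 0.67 higher in Tg-18mo than in Tg-12mo (adjusted p = 2.7e-04). The groups of treated and younger mice differed by 0.09 (adjusted p = 0.38). Probe set 1448541_at, at a signal of 1961 to 2973, gave -0.47 and 0.46 in the first 2 of these comparisons (adjusted p = 0.0023 and 0.0015). The brightest, 1417005_at, had 14214 and 14012 in Tg-18mo-ACEI, 14937 and 15736 in Tg-18mo, and 19705 and 17860 in Tg-12mo. It gave -0.12 with captopril (adjusted p = 0.14) and lay 0.29 lower in Tg-18mo than in Tg-12mo (adjusted p = 0.0034), and this last difference turned to 0.24 (adjusted p = 0.0026) after quantile normalization, as did that of Tg-18mo-ACEI against Tg-12mo, -0.41 (adjusted p = 7.2e-04) as deposited and 0.20 (adjusted p = 0.0082) after it.

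The other light chains with a tested probe set, Klc3 and Klc4, were dim. Klc3 had 192.9 and 145.4 in Tg-18mo-ACEI, 182.3 and 225.7 in Tg-18mo, and 317.0 and 305.2 in Tg-12mo. It was lower at 18 months in both groups, by 0.89 with captopril (adjusted p = 0.0051) and by 0.62 without (adjusted p = 0.023), the second call being lost without Tg-18mo replicate 1 or either Tg-12mo chip (adjusted p = 0.057 to 0.14). Of the 2 Klc4 probe sets, 1417108_at was 0.56 higher in Tg-18mo than in Tg-12mo (adjusted p = 0.0071), and 0.36 without Tg-12mo replicate 2.

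Kinesin-3 motors carry precursors of synaptic vesicles, dense-core vesicles and mitochondria. Kif1b, which encodes isoforms for mitochondria and for synaptic vesicle precursors, had a large rise too. Probe set 1423995_at had 2266 and 2036 in Tg-18mo-ACEI, 711.0 and 711.9 in Tg-18mo, and 1243 and 1285 in Tg-12mo. Again the groups did not overlap and Tg-18mo was the lowest. The differences were 1.59 ± 0.07 with captopril (3.02-fold, adjusted p = 2.1e-06), -0.83 between the ages (adjusted p = 4.3e-05) and 0.77 in Tg-18mo-ACEI against Tg-12mo (adjusted p = 7.9e-05).

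Among the other Kif1b probe sets, 1451762_a_at had 611.2 and 601.3 in Tg-18mo-ACEI, 381.1 and 393.8 in Tg-18mo, and 846.9 and 874.8 in Tg-12mo. It rose by 0.65 with captopril (adjusted p = 5.2e-04) but remained 0.51 below the younger mice (adjusted p = 0.0013), from whom Tg-18mo differed by -1.15 (adjusted p = 1.9e-05). The dim 1425270_at had 218.7 and 194.5 in Tg-18mo-ACEI, against 79.7 and 87.3 in Tg-18mo, a rise of 1.31 (adjusted p = 0.0015). Its values in Tg-12mo were 171.7 and 145.4, higher than in Tg-18mo (-0.92, adjusted p = 0.0048). The signal of 1451200_at was 7529 and 7644 in Tg-18mo-ACEI, against 5920 and 6022 in Tg-18mo and 5281 and 5266 in Tg-12mo, so that its order of groups was another one. It rose by 0.35 with captopril (adjusted p = 5.6e-04) and lay 0.18 higher in Tg-18mo than in Tg-12mo (adjusted p = 0.0084), a call lost without Tg-18mo replicate 2 (0.17, adjusted p = 0.054). The brightest, 1423994_at, had 10355 and 10153 in Tg-18mo-ACEI, 9570 and 10586 in Tg-18mo, and 11108 and 11400 in Tg-12mo. It gave 0.03 with captopril (adjusted p = 0.74), and its difference between the ages was -0.16 (adjusted p = 0.041) as deposited and 0.13 (adjusted p = 0.028) after quantile normalization. As deposited, that call was lost without any 1 of the chips other than Tg-18mo replicate 2 (adjusted p = 0.058 to 0.26). Probe set 1455182_at gave 0.29 with captopril (adjusted p = 0.23) and had no call in any comparison.

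Kif1a, the motor for synaptic vesicle precursors in axons, moved against Kif1b. Probe set 1450108_at had 2146 and 2098 in Tg-18mo-ACEI, 2707 and 2911 in Tg-18mo, and 1695 and 1739 in Tg-12mo. It fell by 0.40 with captopril (adjusted p = 9.9e-04), was 0.71 higher in Tg-18mo than in Tg-12mo (adjusted p = 3.4e-05) and 0.31 higher in Tg-18mo-ACEI than in Tg-12mo (adjusted p = 0.0029). The other probe set, 1421053_at, had 1089 and 990.9 in Tg-18mo-ACEI, 1395 and 1282 in Tg-18mo, and 1236 and 1201 in Tg-12mo, with a fall of 0.36 with captopril (adjusted p = 0.0061) and a positive difference of 0.13 between the ages (adjusted p = 0.16). Its fall of 0.23 in Tg-18mo-ACEI against Tg-12mo (adjusted p = 0.035) was lost without Tg-18mo-ACEI replicate 2 or either Tg-12mo chip (adjusted p = 0.066 to 0.2).

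Kif13a and Kif13b, which carry endosomal and signalling cargo, each had a probe set that moved like Kif1a. Kif13a 1455746_at had 767.5 and 772.3 in Tg-18mo-ACEI, 1071 and 1076 in Tg-18mo, and 658.0 and 648.6 in Tg-12mo, with -0.48 with captopril (adjusted p = 9.8e-04) and 0.72 between the ages (adjusted p = 6.8e-05). Its excess of 0.24 in Tg-18mo-ACEI over Tg-12mo (adjusted p = 0.02) was lost without either Tg-18mo-ACEI chip or Tg-12mo replicate 2 (adjusted p = 0.053 to 0.086) and was 0.11 after quantile normalization (adjusted p = 0.23). Kif13a also gave a call in the other direction, on the dim 1447853_x_at, with 126.0 and 106.7 in Tg-18mo-ACEI, against 60.8 and 56.3 in Tg-18mo (0.99, adjusted p = 0.039) and 120.8 and 72.4 in Tg-12mo. That call was lost without any 1 chip of these groups (adjusted p = 0.1 to 0.18), and the suffix marks probes that may bind other transcripts. This probe set was tested only because of Tg-18mo-ACEI, with a group mean of 116.4, against 58.6 in Tg-18mo and 96.6 in Tg-12mo. Kif13b had 626.7 and 615.6 in Tg-18mo-ACEI, 866.4 and 816.5 in Tg-18mo, and 455.1 and 597.5 in Tg-12mo. It was 0.69 higher in Tg-18mo than in Tg-12mo (adjusted p = 0.002), while its fall of 0.44 with captopril (adjusted p = 0.026) was lost without any 1 chip of the 2 groups (adjusted p = 0.076 to 0.12).

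Kif1c and Kif16b, the kinesin-3 motors for dense-core vesicles and for early endosomes, were less prominent. Neither Kif1c probe set passed with captopril (0.02 and -0.02). In Tg-18mo-ACEI against Tg-12mo, 1424746_at was lower (-0.28, adjusted p = 0.0058) and 1436224_at higher (0.58, adjusted p = 0.023). The higher call was lost without either Tg-18mo-ACEI chip or Tg-12mo replicate 2. Between the ages the Kif1c probe sets were also called in opposite directions. The first, 1424746_at, had 1228 and 1213 in Tg-18mo, against 1479 and 1526 in Tg-12mo (-0.30, adjusted p = 0.0032). The second, 1436224_at, had 220.8 and 258.0 in Tg-18mo, against 174.8 and 141.1 in Tg-12mo (0.60, adjusted p = 0.017). The second call was lost without Tg-18mo replicate 2 or Tg-12mo replicate 2 (adjusted p = 0.12 and 0.067). Both Kif16b probe sets rose with captopril, by 0.54 and 0.70 (adjusted p = 0.0094 and 0.044), and both calls were lost when some single chip was left out, 1429063_s_at without Tg-18mo-ACEI replicate 2 or Tg-18mo replicate 2 (adjusted p = 0.082 and 0.068) and 1429062_at without either Tg-18mo-ACEI chip or Tg-18mo replicate 1 (adjusted p = 0.13 to 0.23).

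Kinesin-4 motors Kif21a and Kif21b restrain the growth of microtubules as well as moving along them, and they differed from each other. Kif21a 1450738_at had 6286 and 5758 in Tg-18mo-ACEI, 2647 and 2689 in Tg-18mo, and 3560 and 3592 in Tg-12mo. It rose by 1.17 ± 0.05 with captopril (2.25-fold, adjusted p = 3.0e-06), was 0.42 lower in Tg-18mo than in Tg-12mo (adjusted p = 3.5e-04) and 0.75 higher in Tg-18mo-ACEI than in Tg-12mo (adjusted p = 3.1e-05). Treated mice were thus above both untreated groups, as on Kif5b 1418431_at and Kif1b 1423995_at. The second probe set, 1455029_at, with 2864 and 2680 in Tg-18mo-ACEI, 2306 and 2335 in Tg-18mo, and 2243 and 2007 in Tg-12mo, rose by 0.26 (adjusted p = 0.018), which was lost without Tg-18mo-ACEI replicate 1 or either Tg-18mo chip (adjusted p = 0.072 to 0.11), and gave 0.13 between the ages (adjusted p = 0.14). Kif21b, a motor of dendrites, had 788.9 and 761.9 in Tg-18mo-ACEI, 912.1 and 952.1 in Tg-18mo, and 577.6 and 626.2 in Tg-12mo. It was 0.63 higher in Tg-18mo than in Tg-12mo (adjusted p = 2.6e-04), and its fall of 0.27 with captopril (adjusted p = 0.028) was lost without any 1 chip of these 2 groups (adjusted p = 0.075 to 0.15).

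Kinesin-2 is formed by Kif3a with Kif3b or Kif3c, and by Kif17, which carries NMDA receptors in dendrites. Kif3a 1420375_at had 2318 and 2249 in Tg-18mo-ACEI, 1655 and 1378 in Tg-18mo, and 1864 and 1924 in Tg-12mo, a rise of 0.60 with captopril (adjusted p = 0.001). Of its other 3 probe sets, 1455652_at rose by 0.34 (adjusted p = 0.013, lost without Tg-18mo-ACEI replicate 2 or Tg-18mo replicate 1, adjusted p = 0.094 and 0.081), and the remaining ones gave 0.01 and 0.08. Between the ages 3 of the 4 were lower in Tg-18mo, by 0.27 to 0.35, of which the call on 1449841_at (-0.27, adjusted p = 0.004) held without any single chip. The other calls were lost without Tg-18mo replicate 2 or Tg-12mo replicate 2 for 1420375_at (adjusted p = 0.064 and 0.052), where it was -0.19 without Tg-18mo replicate 2, against -0.33 with it, and without Tg-18mo replicate 1 for 1455652_at (adjusted p = 0.055). In Tg-18mo-ACEI against Tg-12mo, Kif3a was called higher on 1420375_at (0.27) and lower on 1449841_at (-0.19), and both calls were lost when a chip was left out (adjusted p up to 0.13 and 0.096).

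Kif3b 1450073_at had 259.4 and 258.1 in Tg-18mo-ACEI, 183.0 and 212.7 in Tg-18mo, and 154.4 and 139.2 in Tg-12mo. The second partner of Kif3a, it was 0.82 higher in Tg-18mo-ACEI than in Tg-12mo (adjusted p = 0.0037) and gave 0.39 and 0.43 in the other 2 comparisons (adjusted p = 0.086 and 0.051). The brightest Kif3b probe set, 1420986_s_at, had 654.5 and 648.9 in Tg-18mo-ACEI, 748.7 and 778.4 in Tg-18mo, and 531.9 and 489.1 in Tg-12mo. It was 0.58 higher in Tg-18mo than in Tg-12mo (adjusted p = 5.4e-04), which held without any single chip, and its difference with captopril was negative (-0.23, adjusted p = 0.058). Probe set 1420987_at had no call (-0.14 with captopril, adjusted p = 0.47), and 1450074_at rose by 0.35 with captopril (adjusted p = 0.048), a call lost without any 1 chip of the groups compared (adjusted p = 0.051 to 0.27). Both Kif3c probe sets were higher in Tg-18mo than in Tg-12mo, by 0.31 and 0.25 (adjusted p = 0.0026 and 0.0087), the second call being lost without Tg-18mo replicate 1 (adjusted p = 0.066). The 3 probe sets of Kif17 had no call in any comparison.

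Cytoplasmic dynein 1 consists of the motor-bearing heavy chain Dync1h1, intermediate chains that bind dynactin, and light intermediate chains that bind cargo adaptors. The light intermediate chains were the subunits that rose clearly with captopril. Dync1li1 had 2193 and 2095 in Tg-18mo-ACEI, 1245 and 1495 in Tg-18mo, and 1266 and 1401 in Tg-12mo. Treated mice stood above both untreated groups, which overlapped, with differences of 0.65 ± 0.09 against Tg-18mo (adjusted p = 0.0011) and 0.69 against Tg-12mo (adjusted p = 5.9e-04). Dync1li2 1433925_at had 4138 and 3953 in Tg-18mo-ACEI, 2628 and 2788 in Tg-18mo, and 2744 and 2552 in Tg-12mo, with 0.58 ± 0.06 and 0.61 in these comparisons (adjusted p = 1.9e-04 and 1.0e-04). Its second probe set, 1433926_at, with 1388 to 1555 on the 6 chips, gave 0.12 and 0.11 (adjusted p = 0.14 and 0.15). Between the ages, differences of the 3 probe sets lay between -0.01 and 0.03, with no call.

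The heavy chain moved the other way and by less. Dync1h1 had 6216 and 5957 in Tg-18mo-ACEI, 7072 and 7543 in Tg-18mo, and 6217 and 6378 in Tg-12mo, a fall of 0.26 with captopril (adjusted p = 0.005) and a rise of 0.21 between the ages (adjusted p = 0.0083) that did not hold without Tg-18mo replicate 2 (0.17, adjusted p = 0.066). Of the intermediate chains, Dync1i1, found mainly in neurons, had 5246 and 5061 in Tg-18mo-ACEI, 4888 and 4563 in Tg-18mo, and 4637 and 4935 in Tg-12mo, with no call (0.13 with captopril, adjusted p = 0.11). Dync1i2, the form made in most tissues, gave 0.16 with captopril and -0.14 between the ages (adjusted p = 0.031 and 0.042), and both calls were lost without any 1 chip of the groups compared (adjusted p = 0.056 to 0.17).

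Dynein 2 drives the return transport inside cilia. Its heavy chain Dync2h1 had 496.3 and 530.6 in Tg-18mo-ACEI, 557.0 and 616.1 in Tg-18mo, and 348.5 and 325.7 in Tg-12mo. Both older groups were higher than the younger mice, by 0.61 and 0.80 (adjusted p = 0.0016 and 3.0e-04), and the 2 older groups did not differ at the threshold (-0.19, adjusted p = 0.17). Its light intermediate chain Dync2li1 was 0.35 lower with captopril (adjusted p = 0.0079), lost without Tg-18mo-ACEI replicate 2 (adjusted p = 0.056).

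Dynactin, which links dynein to cargo and keeps it on the microtubule, was lower with captopril in several subunits. Dctn1, the large subunit that touches both dynein and microtubule, had 2941 and 2864 on 1422521_at in Tg-18mo-ACEI, 3993 and 4166 in Tg-18mo, and 2778 and 2886 in Tg-12mo. It fell by 0.49 ± 0.05 with captopril (adjusted p = 2.0e-04), was 0.53 higher in Tg-18mo than in Tg-12mo (adjusted p = 7.7e-05) and differed by 0.04 between treated and younger mice (adjusted p = 0.6). The brighter 1435414_s_at had 8514 and 8642 in Tg-18mo-ACEI, 9391 and 9643 in Tg-18mo, and 11335 and 11933 in Tg-12mo. Its fall of 0.15 with captopril (adjusted p = 0.036) was lost without any 1 chip of the 2 groups (adjusted p = 0.081 to 0.17), and its differences from Tg-12mo, -0.44 in treated and -0.29 in untreated mice (adjusted p = 1.7e-04 and 0.0012), were -0.10 and 0.01 after quantile normalization (adjusted p = 0.076 and 0.91). The 2 probe sets of Dctn1 were thus called in opposite directions between the ages as deposited, but not after quantile normalization.

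Dctn2, which joins the arm of dynactin to its filament, had 6518 and 6282 in Tg-18mo-ACEI, 7487 and 7585 in Tg-18mo, and 7176 and 7570 in Tg-12mo. It fell by 0.24 with captopril (adjusted p = 0.0062, or 0.052 without an intensity trend in the fit) and by 0.20 against Tg-12mo (adjusted p = 0.0094), the second call ending at -0.02 after quantile normalization (adjusted p = 0.71) and being lost without Tg-18mo-ACEI replicate 2 or Tg-12mo replicate 2 (adjusted p = 0.061 and 0.064). Dctn3, of the same arm, had 4794 and 4832 in Tg-18mo-ACEI, 5823 and 6233 in Tg-18mo, and 5465 and 5722 in Tg-12mo, a fall of 0.32 with captopril (adjusted p = 0.002) that held without any single chip. Single probe sets of Dctn5 and Dctn6, subunits at the pointed end of the filament, fell by 0.24 and 0.15 (adjusted p = 0.027 and 0.037). Both calls were lost on leaving out a chip. The brighter probe sets of Dctn5 and Dctn6 gave 0.01 and 0.12 (adjusted p = 0.92 and 0.58). Of 5 Dctn4 probe sets, 1420861_at alone was called with captopril (0.20, adjusted p = 0.025), and without any 1 chip of the 2 groups compared it was not. The differences of the others lay between -0.17 and 0.69, the largest on the dim 1420863_at (adjusted p = 0.059).

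Most probe sets of mitotic kinesins gave low signals. For 11 of 13 genes of this class, among them Kif11, the motor that separates spindle poles, Kif23 and Kif20a, which act in cytokinesis, and Kif2c, which depolymerises microtubules at kinetochores, no probe set was tested. The others of these 11 were Kif14, Kif15, Kif18a, Kif18b, Kif20b, Kif2b and Kif4, and Kif12, Kif24, Kif26a and Kif28 of other classes had no tested probe set either. Of 8 markers of dividing cells 1 was tested, with a summed signal of 331.0 to 379.1 in Tg-18mo-ACEI, 290.3 to 393.9 in Tg-18mo and 324.4 to 379.2 in Tg-12mo, and Mki67 and Top2a stayed under 100. Kif2a, a depolymerising kinesin that limits the growth of axon branches, was measured on 4 probe sets. Its brightest, 1450053_at, lay between 3144 and 3350 on all 6 chips, with differences of -0.01, 0.01 and 0.00. Kif22, a motor bound to chromosomes, had 643.4 and 756.7 in Tg-18mo-ACEI, 664.3 and 630.3 in Tg-18mo, and 1133 and 1057 in Tg-12mo, so that both older groups were lower, by 0.65 and 0.76 (adjusted p = 8.4e-04 and 2.9e-04). These values are of probe set 1437716_x_at, which may bind other transcripts. The other Kif22 probe sets, 1423813_at and 1451128_s_at, had highest group means of 37.7 and 52.1 and were not tested.

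Kif9, Kif6 and Kif27 belong to motile cilia. Kif9 had 101.6 and 89.3 in Tg-18mo-ACEI, 160.4 and 204.6 in Tg-18mo, and 87.9 and 99.7 in Tg-12mo, the largest fall with captopril among all 80 probe sets (-0.93, adjusted p = 0.014) and the largest rise between the ages (0.95, adjusted p = 0.0084). Neither call held without Tg-18mo replicate 2 (-0.75 and 0.78, adjusted p = 0.13 and 0.084), the first also without Tg-18mo-ACEI replicate 2 (adjusted p = 0.085). Kif6 had 155.2 and 126.1 in Tg-18mo-ACEI, 108.6 and 83.4 in Tg-18mo, and 64.7 and 75.4 in Tg-12mo. It was 1.0 higher in Tg-18mo-ACEI than in Tg-12mo (adjusted p = 0.015), a call lost without Tg-18mo-ACEI replicate 1 (adjusted p = 0.11). Kif9 reached a group mean of 100 only in Tg-18mo (182.5, against 95.5 in Tg-18mo-ACEI and 93.8 in Tg-12mo). Kif6 reached it only in Tg-18mo-ACEI (140.7, against 96.0 in Tg-18mo and 70.0 in Tg-12mo). Each was thus tested only because of its highest group, on which the calls also rest. Kif27, tested only through Tg-18mo (114.5), Kif7, which tunes Hedgehog signalling in cilia, and Kif26b, with 63.9 to 202.2 on the 6 chips, had no call. Markers of ependymal cells moved with captopril as well, with 8 of 11 tested genes lower and 0 higher and a summed signal of 2238 to 2297 in Tg-18mo-ACEI, 3137 to 3325 in Tg-18mo and 2883 to 3264 in Tg-12mo. Of 9 choroid plexus markers 8 were lower with captopril and 0 higher, with log2 differences of these 8 between -2.74 and -1.56 and summed signals of 1761 to 1790 in Tg-18mo-ACEI, 8736 to 8968 in Tg-18mo and 7637 to 7850 in Tg-12mo. The ninth and brightest, Ttr, gave 0.05 (adjusted p = 0.59), with 20358 and 18370 in Tg-18mo-ACEI, 17548 and 19806 in Tg-18mo, and 36598 and 36156 in Tg-12mo. The background share of genes lower with captopril was 21.7% by their brightest probe sets. The part of these cells in the values of ciliary kinesins and of dynein 2 was not tested.

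Probe sets of the same gene did not always move together. Of 21 genes with 2 or more tested probe sets, 4 had every probe set called in the same direction with captopril, 10 had some called and some not, 1 (Kif13a) had calls in both directions and 6 had none. Over all 5474 genes with 2 or more tested probe sets these shares were 8.99%, 46.4%, 5.15% and 39.5%. The median span between the lowest and the highest difference of a gene was 0.46, against 0.35 over all such genes. Between the ages 4 of the 21 genes were called in both directions, namely Kif1b, Kif1c, Klc1 and Dctn1, with a median span of 0.55 (14.1% and 0.48 over all such genes), and in Tg-18mo-ACEI against Tg-12mo 6 were, with a median span of 0.50 (8.35% and 0.40). Where in a transcript each probe set lies was not analysed here.

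**Figure D4:**
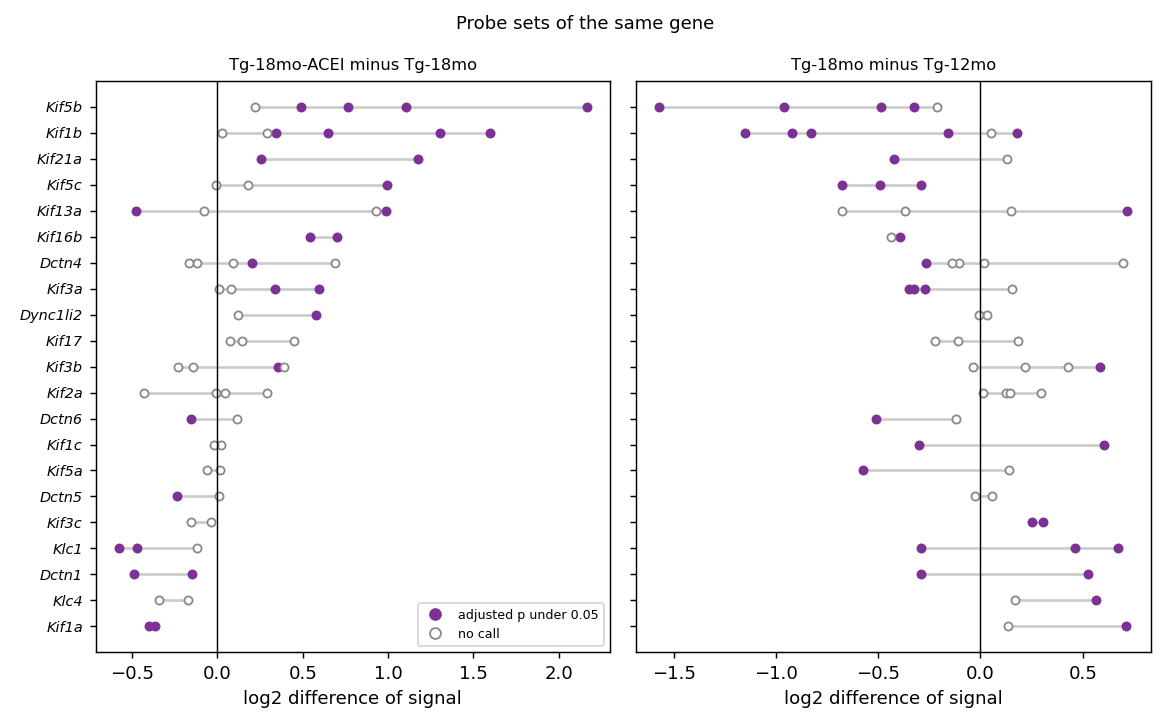
Log2 differences (x axis) of the tested probe sets of the 21 genes with 2 or more, in 2 comparisons. Each point is a probe set, filled where the adjusted p was under 0.05, and a grey line spans the gene. With captopril Kif5b and Kif1b have the widest spread above 0 and Kif1a and Dctn1 lie below 0 throughout.

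The age differences of many of the brightest probe sets changed with the scaling. Of the 80 probe sets, 9 had a mean signal of 5000 or more, a limit chosen after the values were seen, and these were probe sets of Kif5a, Kif5c, Klc1, Kif1b (2), Dctn1, Dctn2, Dctn3 and Dync1h1. Between Tg-18mo and Tg-12mo 2 of the 9 were higher and 5 lower as deposited, against 7 higher and 0 lower after quantile normalization. Of all 1709 tested probe sets at this level, 68.3% were lower as deposited, with a median of -0.30, and the median was -0.00 after quantile normalization. Of all these bright probe sets, 457 were higher and 475 lower after it. For 4 of the 9, those of Kif5a, Klc1 and Dctn1 and 1423994_at of Kif1b, the age difference changed sign with the scaling. The other 5 kept theirs, with Dync1h1 at 0.21 as deposited and 0.35 after quantile normalization, and Kif5c at -0.49 and -0.02. With captopril against untreated mice of the same age the counts of these 9 were 1 higher and 4 lower as deposited and 1 and 3 after quantile normalization, against 193 and 364 of all 1709 as deposited (21.3% lower) and 327 and 360 after it.

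**Figure D5:**
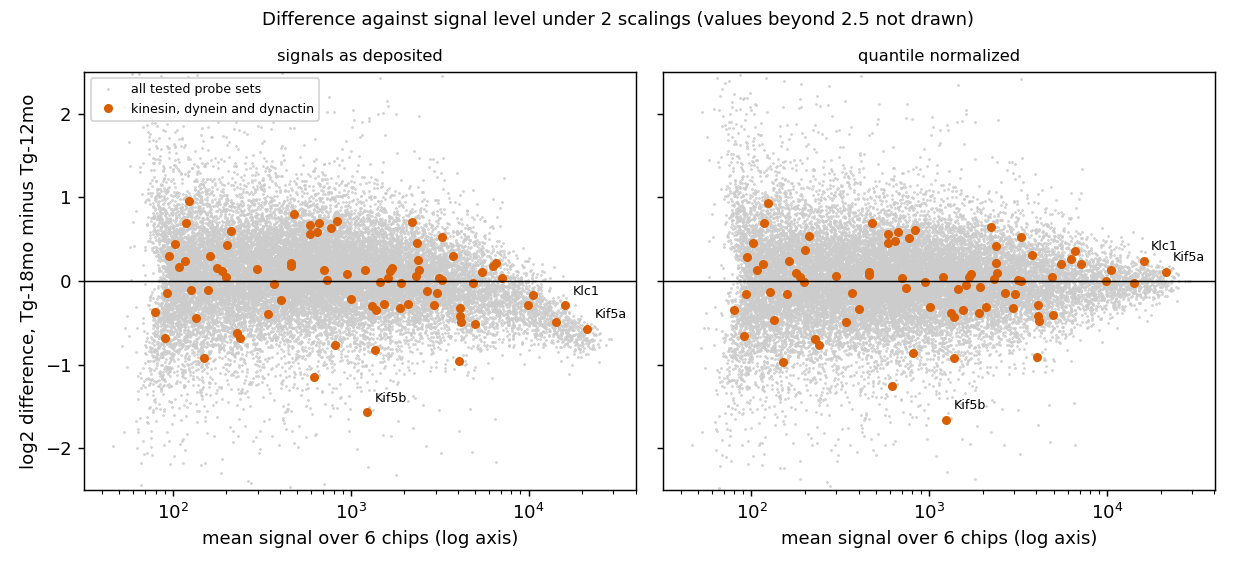
Log2 difference of Tg-18mo minus Tg-12mo (y axis) against the mean signal over the 6 chips (log axis), on the deposited signals and after quantile normalization. Grey points are all tested probe sets and orange points the 80 transport probe sets. Kif5a and the bright Klc1 probe set lie below 0 on the left, at -0.58 and -0.29, and above it on the right, at 0.11 and 0.24, while Kif5b 1418431_at stays low, at -1.57 and -1.66.

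Other genes of the same machinery were taken from lists, with the brightest probe set of each gene. Over all genes by their brightest probe sets, the background shares were 12.6% higher and 21.7% lower with captopril, and 28% higher and 21% lower between the ages. Of 21 adaptors and partners of kinesins, 2 rose and 8 fell with captopril (9.52% and 38.1%), and 10 were higher and 4 lower in Tg-18mo than in Tg-12mo (47.6% and 19%, or 8 and 2 genes after quantile normalization). Mapk8ip1, a scaffold that joins kinesin-1 to amyloid precursor protein, had 1828 and 1755 in Tg-18mo-ACEI, 2270 and 2154 in Tg-18mo, and 568.5 and 532.5 in Tg-12mo. Both older groups were far above the younger mice, by 1.70 and 2.01 (adjusted p = 2.7e-06 and 1.4e-06), and the fall of 0.30 with captopril (adjusted p = 0.0076) was lost without Tg-18mo-ACEI replicate 2 or Tg-18mo replicate 1 (adjusted p = 0.059 and 0.061). Madd, which tethers vesicles to Kif1a and Kif1b, had 2413 and 2390 in Tg-18mo-ACEI, 2833 and 2941 in Tg-18mo, and 1541 and 1515 in Tg-12mo, with -0.27 with captopril and 0.92 between the ages (adjusted p = 0.0046 and 8.7e-06). Mapk8ip3, a scaffold for kinesin-1 and dynein, gave -0.40 and 0.64 in these comparisons (adjusted p = 0.0015 and 6.7e-05).

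Of 10 tested regulators and activating adaptors of dynein, 2 rose and 2 fell with captopril (20% each, against 12.6% and 21.7% of all genes) and 3 were higher and 1 lower between the ages (30% and 10%, against 28% and 21%). Bicd2, an adaptor that binds dynein and dynactin together, had 2334 and 2496 in Tg-18mo-ACEI, 1456 and 1458 in Tg-18mo, and 2684 and 2537 in Tg-12mo. It rose by 0.73 with captopril (adjusted p = 5.0e-05), fell by 0.84 between the ages (adjusted p = 1.9e-05), and treated and younger mice differed by -0.11 (adjusted p = 0.15). Rilp, which recruits dynein to late endosomes, had 131.2 and 74.7 in Tg-18mo-ACEI, against 220.2 and 253.3 in Tg-18mo (-1.25, adjusted p = 0.012), a call lost without Tg-18mo-ACEI replicate 2 (-0.85) or Tg-18mo replicate 2 (adjusted p = 0.074 and 0.076). Rab11fip3, an adaptor for recycling endosomes, was 0.76 higher in Tg-18mo than in Tg-12mo (adjusted p = 2.8e-04) and gave 0.02 with captopril.

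Among 6 dynein light chains 0 rose and 2 fell with captopril (33.3%, against 21.7% of all genes). Dynlrb2, also a subunit of ciliary dyneins, had 335.1 and 292.3 in Tg-18mo-ACEI, 755.9 and 680.8 in Tg-18mo, and 657.1 and 676.9 in Tg-12mo (-1.20 with captopril, adjusted p = 7.8e-05). It moved in the direction of the ependymal markers given above, whose part was not tested. Dynll1, a light chain shared with many other complexes, was 0.52 lower in Tg-18mo than in Tg-12mo as deposited (adjusted p = 6.0e-05) and 0.12 higher after quantile normalization (adjusted p = 0.021). Dynlt1f was 1.16 higher between the ages (adjusted p = 0.0071), lost without Tg-18mo replicate 1 (adjusted p = 0.07). It was tested only because of Tg-18mo, with a group mean of 119.6, against 53.3 in Tg-12mo.

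Of 4 genes for the filament and caps of dynactin, Actr1a, the actin-related protein of the filament, fell by 0.25 with captopril (adjusted p = 0.0036) and was 0.38 higher in Tg-18mo than in Tg-12mo (adjusted p = 2.5e-04). Capza2 and Capzb, which cap actin filaments too, had no call with captopril as deposited (0.14 and -0.18, adjusted p = 0.06 and 0.068), although Capza2 was 0.23 higher after quantile normalization (adjusted p = 0.0042), and gave -0.34 and 0.32 between the ages (adjusted p = 6.7e-04 and 0.0045), that of Capza2 being 0.04 after quantile normalization (adjusted p = 0.5). The C-terminal kinesins Kifc2 and Kifc3, which walk to the minus end, fell with captopril by 0.15 and 0.28 (adjusted p = 0.033 and 0.015), and both calls were lost on leaving out a chip (adjusted p up to 0.17 and 0.11).

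Of 11 tubulins, the track itself, 0 rose and 2 fell with captopril (18.2%, against 21.7% of all genes), and 2 were higher and 5 lower in Tg-18mo than in Tg-12mo as deposited (18.2% and 45.5%, against 28% and 21%), against 4 higher and 1 lower after quantile normalization. Tubb3, a neuronal β-tubulin, had 2484 and 2383 in Tg-18mo-ACEI, 3330 and 3386 in Tg-18mo, and 2078 and 2182.3 in Tg-12mo (-0.46 and 0.66, adjusted p = 3.3e-04 and 3.5e-05). Tubb4a, prominent in oligodendrocytes and neurons, gave -0.27 and 0.87 (adjusted p = 0.0057 and 1.4e-05). Tuba1a, among the brightest, had 16662 and 16282 in Tg-18mo-ACEI, 17248 and 17888 in Tg-18mo, and 27947 and 27088 in Tg-12mo, a difference of -0.65 between the ages (adjusted p = 2.2e-05) that was 0.02 after quantile normalization (adjusted p = 0.66).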

How the data were processed

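Hippocampal RNA was measured on Affymetrix Mouse Genome 430 2.0 chips, 2 per group. The authors deposited 1 signal intensity per probe set and chip, made with GCOS and scaled so that the mean of each chip without its highest and lowest 2% was 600. Signals were used as deposited and taken to log2. Of 45101 probe sets 64 controls were left out, and those with a group mean of 100 or more in at least 1 group were kept (23262, of which 21122 had 1 gene symbol in the platform annotation, 546 several and 1594 none). All 3 groups were fitted together with limma 3.58.1 in R 4.3.3 (lmFit, and eBayes with an intensity trend, 3 residual and 5.37 prior degrees of freedom), where the study's methods used t-tests. P-values were adjusted by the Benjamini-Hochberg method over all tested probe sets in each comparison, and an adjusted p under 0.05 was called. Differences are log2 of the first group over the second. Motifs were counted with Python 3.11.15 and pandas 2.3.3, and figures drawn with matplotlib 3.10.9. The fit was tested on simulated data. The number of chips limits the precision.

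Named with values were the 8 largest rises and falls per comparison among called probe sets without overlap between groups, the brightest probe set of 13 main motor genes, every probe set of a gene called in both directions, other probe sets of these genes, and the 3 largest differences of each related list. Of those 13 genes, Klc2 had no probe set with its symbol alone and is not represented. Outside this rule, Klc4, Kif16b, Kif3c, Kif17, Kif2a, Dync1i2, Dync2li1 and Dctn3 to Dctn6, and the marker Ttr, were named after their values were seen. The genes and all lists were chosen with earlier results of these data known. Alternatives were an added signal of 32, no filter or a mean of 200 over all chips, quantile or median scaling, a fit on the compared groups alone, a block for replicate numbers, a prior without intensity trend, the methods' t-test, the brightest or plain probe sets only, the study's thresholds (unadjusted p of 0.01 or less, 2-fold and a mean of 100 in a compared group), and leaving out each chip.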

Additional observations from a re-analysis of the deposited data

How the results depend on the processing

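Counts are given as higher and lower. The main counts of the 80 probe sets were 21 and 16 in Tg-18mo-ACEI against Tg-18mo, 16 and 25 in Tg-18mo against Tg-12mo, and 22 and 17 in Tg-18mo-ACEI against Tg-12mo. In this order of comparisons, the methods' t-test after Benjamini-Hochberg gave 1 and 1, 1 and 4, and 0 and 0 on linear signals. On log2 signals it gave 0 and 1, 1 and 3, and 0 and 0. Over all tested probe sets its shares on linear signals were 0.34% and 0.168%, 2.73% and 2.41%, and 0.507% and 0.576%. Those on log2 signals were 0.189% and 0.116%, 2.42% and 2.13%, and 0.0387% and 0.0559%. The t-test uses only the 2 degrees of freedom of the chips compared. The brightest probe set of each gene gave 8 and 10, 10 and 15, and 11 and 10 of 38, and the study's thresholds 5 and 0, 0 and 2, and 1 and 0. Without an intensity trend the lower counts were 10 in the first and 11 in the last comparison. Leaving out 1 chip gave 14 to 22 and 9 to 19 (with lower counts of 9 where Tg-18mo-ACEI replicate 2 was left out, and 10 for Tg-18mo replicate 2), 12 to 18 and 18 to 23, and 16 to 25 and 12 to 17. Of the calls, 22 of 37, 27 of 41 and 25 of 39 held without any single chip. With the replicate block the counts were 19 and 14, 16 and 23, and 22 and 17. Same-numbered chips deviated together with correlations of -0.03, 0.03 and -0.05, so the numbers were not taken to pair them.

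The median difference with the brightest probe sets was -0.0906 (0.02 over all 80) with captopril against untreated mice of 18 months and 0.0248 (0.11 over all 80) against those of 12 months. Quantile normalization turned the sign of Kif1b 1423994_at, Kif5a 1434670_at, Klc1 1417005_at and Dctn1 1435414_s_at in Tg-18mo against Tg-12mo, to 0.13, 0.11, 0.24 and 0.00654, and in Tg-18mo-ACEI against Tg-12mo that of the same Kif1b, Kif5a and Klc1 probe sets, to 0.23, 0.11 and 0.20, and of Kif5c 1455266_at, to 0.0399. The cause was not tested.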
